A study of Mus musculus with 20 samples.

Results

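This report covers 9 genes whose products act inside the cell beside the adhesion receptor BAI1, encoded in the mouse by Adgrb1. They were chosen by name as known partners of BAI1 in Rac signalling and at the postsynapse, out of 24411 genes listed for every library, and all 9 (Elmo1, Elmo2, Elmo3, Dock1, Tiam1, Pard3, Rac1, Mdm2 and Baiap2) passed the filter on low values in every comparison. RNA was sequenced from cochleae of Bai1tm2b/+ mice (labelled Het) and Bai1tm2b/tm2b littermates (labelled Homo), both on the C57BL/6N background and of both sexes, at postnatal day 7 (P7) and 22 (P22). Each library was a pool of 4 mice, from which the sensory epithelium and the spiral ganglion neurons were dissected. There were 3 libraries of each genotype at P22 and 7 of each at P7.

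The tm2b allele lacks exons 3 and 4 of Adgrb1 and carries a lacZ cassette in their place. It is constitutive, removes the long isoform and leaves a short isoform that still encodes the intracellular part of the receptor. The controls also carry 1 copy of this allele, so that no library is from wild-type mice. The labels state 2 batches of 3 and 4 replicates per genotype at P7, and the deposited unit splits the P7 libraries the same way: replicates 5 to 7 are in estimated counts and replicates 1 to 4 in TPM (a level per transcript length and library total) rounded to whole numbers. The totals were 35725985 to 40350413 counts per library at P22 and 31108551 to 58807173 at P7.

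BAI1 is a postsynaptic and phagocytic receptor. Its tail binds ELMO1, which works with the exchange factor DOCK1 to load the small GTPase Rac1 with GTP, and active Rac1 remodels actin through the WAVE complex and PAK kinases. At synapses BAI1 recruits another Rac exchange factor, TIAM1, together with the polarity scaffold PAR3 (Pard3). The tail also binds the ubiquitin ligase MDM2, which otherwise marks the scaffold PSD-95 for degradation, and BAIAP2 (IRSp53), a scaffold that links Rac to the actin cytoskeleton. In the cochlea these proteins can act in hair cells, supporting cells, glia, macrophages and spiral ganglion neurons, and markers of all of these cells were detected in every set of libraries.

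In the GRCm38 (mm10) annotation the adaptor Elmo1 (ENSMUSG00000041112.17) lies on the plus strand at chr13:20090596-20608353, Elmo2 on the minus strand at chr2:165288031-165326479 and Elmo3 on the plus strand at chr8:105305601-105310760. The exchange factor Dock1 (ENSMUSG00000058325.6) lies on the plus strand at chr7:134670654-135173639 and Tiam1 (ENSMUSG00000002489.16) on the minus strand at chr16:89787111-90143769. Pard3 is on the plus strand at chr8:127063893-127612286, Rac1 on the minus strand at chr5:143503634-143528036, Mdm2 on the minus strand at chr10:117688875-117710758 and Baiap2 on the plus strand at chr11:119942763-120006782. The counts are per gene and sum all of its transcripts. Of the exon bases of Rac1, 51.4% also lie in exons of Daglb on the opposite strand, and the sources used here do not state whether strand was used in counting, so that the level of Rac1 is uncertain. The same overlap is 3.20% for Elmo1, 3.19% for Elmo3 and 0 for the other 6 members.

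The promoter windows of the 3 members whose levels differed most between the sets of libraries (Elmo1, Dock1 and Tiam1) are shown because their levels at P22 and P7 are compared below. They are RefSeq sequences of GRCm38.p6 that run up to 250 bases before an annotated start, written 5′ to 3′ on the strand of the gene. Capitals mark matches to the GC box, GGGCGG or its reverse complement CCGCCC.
Elmo1, chr13:20090257-20090506, plus strand: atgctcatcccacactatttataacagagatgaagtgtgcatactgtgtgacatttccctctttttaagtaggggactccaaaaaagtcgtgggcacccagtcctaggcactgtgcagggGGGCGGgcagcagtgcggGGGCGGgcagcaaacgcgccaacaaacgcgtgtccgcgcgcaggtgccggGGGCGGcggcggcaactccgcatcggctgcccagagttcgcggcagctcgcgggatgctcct
Dock1, chr7:134670437-134670653, plus strand: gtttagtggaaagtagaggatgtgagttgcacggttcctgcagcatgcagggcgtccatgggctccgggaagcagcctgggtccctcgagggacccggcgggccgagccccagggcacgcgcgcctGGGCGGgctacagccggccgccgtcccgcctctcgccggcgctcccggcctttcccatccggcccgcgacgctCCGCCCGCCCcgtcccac
Tiam1, chr16:89974700-89974949, minus strand: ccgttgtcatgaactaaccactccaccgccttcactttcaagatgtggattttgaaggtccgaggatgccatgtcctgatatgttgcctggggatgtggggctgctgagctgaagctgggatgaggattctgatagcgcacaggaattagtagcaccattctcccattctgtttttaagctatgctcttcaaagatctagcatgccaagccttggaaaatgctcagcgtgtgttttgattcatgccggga
Tiam1, second start, chr16:89818353-89818602, minus strand: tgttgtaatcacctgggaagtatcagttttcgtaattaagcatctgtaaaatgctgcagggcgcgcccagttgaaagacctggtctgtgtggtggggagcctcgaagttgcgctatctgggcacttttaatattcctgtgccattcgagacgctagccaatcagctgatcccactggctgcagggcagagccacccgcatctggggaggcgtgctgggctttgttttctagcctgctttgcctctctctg

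The Elmo1 window holds 3 GC boxes and 21 CpG dinucleotides, and the Dock1 window, which has 217 bases, holds 3 GC boxes, of which 2 overlap, and 26 CpG dinucleotides. Neither Tiam1 window holds a GC box, and they have 6 and 9 CpG dinucleotides. Both lie inside the span given above for Tiam1, and the 5′ end of that span, at 90143769, has no window here. A GC box was found in 32.7% of all 32851 windows of this table, on either strand. A match describes only these letters.

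The targeted gene was measured first. At P22 Adgrb1 was at 139, 137 and 151 CPM (counts relative to the library total, scaled by TMM) in the Het libraries and at 93.3, 90.8 and 95.8 CPM in the Homo libraries. The groups did not overlap, and the log2 fold change was -0.61 ± 0.0585 (SE, adjusted p = 0.000602, edgeR). At P7 the libraries in counts read 35.5, 61.5 and 39.4 CPM in Het and 29.6, 23.8 and 34.3 CPM in Homo, which did not overlap (log2 fold change -0.64 ± 0.227, unadjusted p = 0.0253, adjusted p = 0.894, edgeR). In rounded TPM the values were 10, 12, 8 and 7 in Het and 9, 9, 10 and 12 in Homo, and the groups overlapped. The counts include reads of the short isoform, and in the libraries in rounded TPM the summed value of the gene does not set the genotypes apart.

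At P22 the question was whether the partners are transcribed at another level once the long isoform is gone. None of the 9 members passed an adjusted p of 0.05, against 12.3% of the 15443 genes tested (5.04% higher and 7.28% lower in Homo), and 4 of 9 had an unadjusted p under 0.05, against 28.7% of all genes. With DESeq2, 3 of the 9 and 2489 of 14735 genes passed. At the study's stricter threshold, which also asks for a log2 fold change above 0.5 in size and a standard error under 0.5, 0 of 9 members and 3.15% of all genes passed. The differences of the members ran from -0.27 for Tiam1 to 0.46 for Elmo3 on the log2 scale, with a median of -0.01, beside 0.01 for all genes tested. The Homo libraries did not overlap the Het libraries for 4 of 9 members (1 higher and 3 lower), against 33.7% of all genes (15.8% higher and 17.9% lower).

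For each of the 3 ELMO adaptors the genotypes did not overlap, although none passed. Elmo1, the adaptor that binds the tail of BAI1, was at 151, 148 and 168 CPM in Het and 140, 132 and 141 CPM in Homo, so that every Homo library was below every Het library. Its log2 fold change was -0.18 ± 0.0634 (SE, n = 3 per group, adjusted p = 0.0892, edgeR), with a 95% interval of -0.32 to -0.04. Elmo2, a relative that also pairs with DOCK1, was at 97.9, 101 and 97.2 CPM in Het and 86.8, 89.9 and 89.99 CPM in Homo, again with no overlap. The log2 fold change was -0.15 ± 0.0534 (adjusted p = 0.0939, edgeR).

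Elmo3, the remaining member of the family, went the other way. It was at 9.49, 13.2 and 11.3 CPM in Het and 14.1, 14.2 and 18.4 CPM in Homo, and the lowest Homo library was above the highest Het library. The log2 fold change was 0.46 ± 0.142 (adjusted p = 0.0602, edgeR), with a 95% interval of 0.15 to 0.78. It passed without Het replicate 2 (0.58, adjusted p = 0.0231, edgeR) and in no other fit that left out a library.

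Of the exchange factors, Tiam1 was at 49.3, 47.3 and 54.6 CPM in Het and 36.9, 48.0 and 40.9 CPM in Homo. Homo replicate 2 lay within the range of the Het libraries, and the log2 fold change was -0.27 ± 0.0963 (adjusted p = 0.0972, edgeR). Without that library, which was singled out by its value, the log2 fold change was -0.37 and passed (adjusted p = 0.0369, edgeR). This was the only pass in the 6 fits that left out a library, where the adjusted p reached 0.268 (edgeR). Dock1, by contrast, had equal means of 48.1 ± 3.27 (SD, n = 3) CPM in Het and 48.1 ± 3.99 CPM in Homo. The 95% interval of its log2 fold change, -0.17 to 0.17, bounds the difference at this age under TMM scaling.

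Among the remaining members, the polarity scaffold Pard3 was at 53.7, 51.2 and 51.2 CPM in Het and 50.4, 45.9 and 50.1 CPM in Homo. The groups just did not overlap, but the log2 fold change of -0.09 did not pass (adjusted p = 0.372, edgeR). Rac1, the GTPase itself, was at 264 ± 8.79 CPM in Het and 270 ± 5.52 CPM in Homo, with a 95% interval of -0.08 to 0.15 for its log2 fold change. Mdm2 (log2 fold change 0.11, 95% interval -0.04 to 0.25) and Baiap2 (-0.01, 95% interval -0.21 to 0.19) overlapped between genotypes.

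Other cell types moved with the genotype at P22. The summed level of 12 neuron markers was 13727 to 15582 CPM in Het and 10255 to 11725 CPM in Homo, with no overlap, and 6 of 12 passed, all lower (Nefl, a neurofilament subunit, by -0.45). In bulk libraries, fewer cells of a type and less RNA per cell cannot be told apart. When the libraries were scaled to these neuron markers, the median of all genes rose to 0.27, Elmo1 stood at 0.074, Elmo2 at 0.10 and Tiam1 at -0.0014, while Elmo3 (0.71), Rac1 (0.29) and Mdm2 (0.36) passed as higher. This scaling moved every gene up by about the same amount, so that the signs of Elmo1 and Elmo2 followed from the shift, and 5250 of 15443 genes passed under it.

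Of 10 hair cell markers tested, 4 were higher and 1 was lower at P22, and of 10 supporting cell markers, 3 were higher and 1 was lower. The counts were 2 higher of 9 Schwann cell and myelin markers, 1 higher of 9 macrophage markers, 1 higher of 8 neutrophil markers and 1 higher of 6 erythroid markers, and 0 of 8 bone markers passed (edgeR, with 1 of these 8 at an unadjusted p under 0.05). The summed supporting cell level was 2037 to 2362 CPM in Het and 2414 to 2513 CPM in Homo, with no overlap. The summed macrophage level was 138 to 167 CPM in Het and 166 to 213 CPM in Homo. The summed neutrophil level was 6.96 to 17.5 CPM in Het and 7.24 to 61.3 CPM in Homo, which overlap. All 8 lists were present at P22, with none of their markers at 0 in every library. Their part in the results of the members was not tested.

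**Figure D1:**
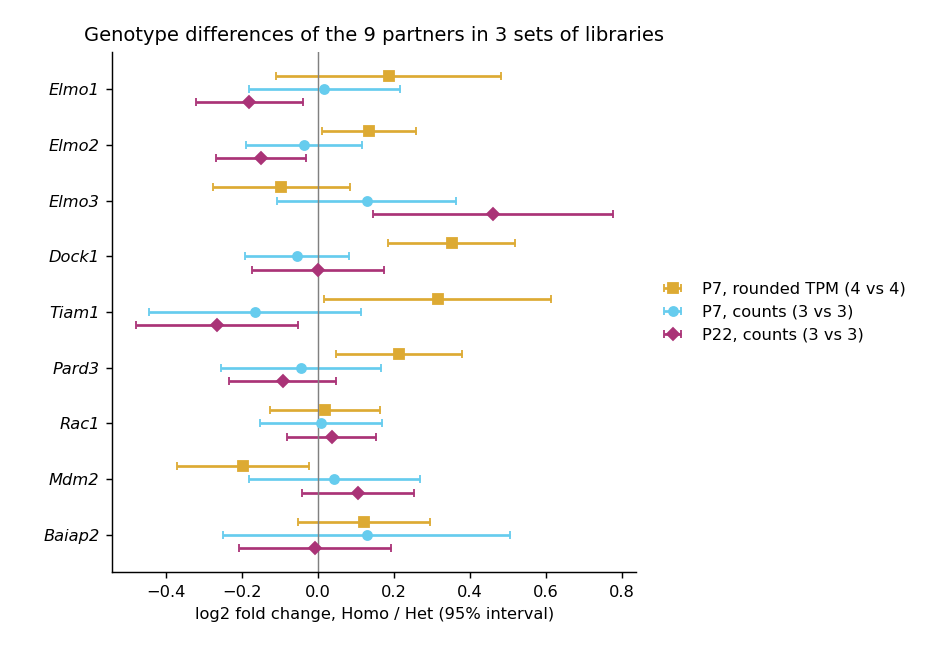
Log2 fold change of Homo over Het (x axis) for each of the 9 partners (y axis) in the P7 libraries in rounded TPM (squares, 4 against 4), the P7 libraries in counts (circles, 3 against 3) and the P22 libraries in counts (diamonds, 3 against 3), with 95% intervals for each gene alone. Dock1 stands at 0.35 in rounded TPM, at -0.05 in the P7 counts and at zero at P22, and Elmo3 at P22 (0.46) is the point farthest to the right.

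At P7 none of the members passed in the libraries in counts. Their log2 fold changes ran from -0.16 for Tiam1 to 0.13 for Baiap2, and the groups overlapped for all 9, while 10.4% of the 16026 genes tested had groups that did not overlap. DESeq2 also called none of the 9, and 0 of 9 had an unadjusted p under 0.05, against 4.76% of all genes. Over all genes, edgeR called 0% (0 of 16026, with 763 at an unadjusted p under 0.05) and DESeq2 called 56. With no gene called, the 8 marker lists had 0 calls as well (edgeR, with 0 to 2 markers per list at an unadjusted p under 0.05), which does not show an equal makeup. By sign, 11 of 12 neuron markers were lower in Homo and 1 was higher (median -0.34). All 9 Schwann cell and myelin markers were lower (median -0.50), and all 7 neutrophil markers tested were higher (median 1.79). The summed neuron level was 1620 to 3285 CPM in Het and 1381 to 2043 CPM in Homo, which overlap.

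In this set Elmo1 was at 64.1, 76.2 and 72.4 CPM in Het and 68.6, 70.2 and 76.5 CPM in Homo. Dock1 was at 88.4, 92.4 and 91.7 CPM in Het and 89.6, 84.3 and 88.4 CPM in Homo. Tiam1 was at 34.6, 45.4 and 40.03 CPM in Het and 39.2, 32.6 and 35.3 CPM in Homo. For these 3 genes the libraries of the genotypes overlapped. In Baiap2, Homo replicate 5 read 41.4 CPM and the other 2 Homo libraries 27.0 and 29.6 CPM, beside 28.7, 28.7 and 32.2 CPM in Het. The 95% intervals of the log2 fold changes were -0.18 to 0.21 for Elmo1, -0.19 to 0.08 for Dock1 and -0.44 to 0.11 for Tiam1.

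The P7 libraries in rounded TPM were tested on their own. Here 1 of 9 members passed, Dock1, against 8.16% of the 11740 genes tested (limma, 4.78% higher and 3.38% lower), and 5 of 9 had an unadjusted p under 0.05, against 34.5% of all genes. At the study's threshold 0 of 9 members and 0.809% of all genes passed. Dock1 was at 21.7, 21.1, 19.3 and 21.99 TPM (scaled by TMM) in Het and 24.6, 30.6, 27.4 and 26.1 TPM in Homo, with no overlap. The log2 fold change, on the scale of log2(TPM + 1), was 0.35 ± 0.0754 (SE, n = 4 per group, adjusted p = 0.0436, limma), or 1.28-fold.

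Of the other members, Tiam1 was at 13.8, 14.1, 11.8 and 12.1 TPM in Het and 11.8, 19.1, 18.6 and 16.8 TPM in Homo. Homo replicate 1 stood with the Het libraries, and the log2 fold change of 0.32 did not pass (adjusted p = 0.128, limma). Without that library, which was singled out by its value, it was 0.46 and passed (adjusted p = 0.0140, limma). This was the only pass of Tiam1 in the 8 fits that left out a library, where its adjusted p reached 0.294 (limma). Pard3, with 0.21 (adjusted p = 0.0804, limma), passed only without Het replicate 1 (0.27, adjusted p = 0.0456, limma). Elmo2 was at 35.2 to 36.6 TPM in Het and 36.4 to 41.1 TPM in Homo (0.13, adjusted p = 0.122), Mdm2 at 34.1 to 43.9 TPM in Het and 32.3 to 36.4 TPM in Homo (-0.20, adjusted p = 0.111, limma).

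Groups that did not overlap were found for 2 of 9 members in rounded TPM (1 higher, 1 lower), against 18.2% of all genes (9.24% higher, 8.97% lower). The other one, Elmo3, shows how coarse the unit is: its deposited value was 6 TPM in all 8 libraries, and the scaled values of 5.93 to 6.60 in Het and 5.59 to 5.90 in Homo differ only through the scaling factors. No difference in Elmo3 can be read from this set.

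**Figure D2:**
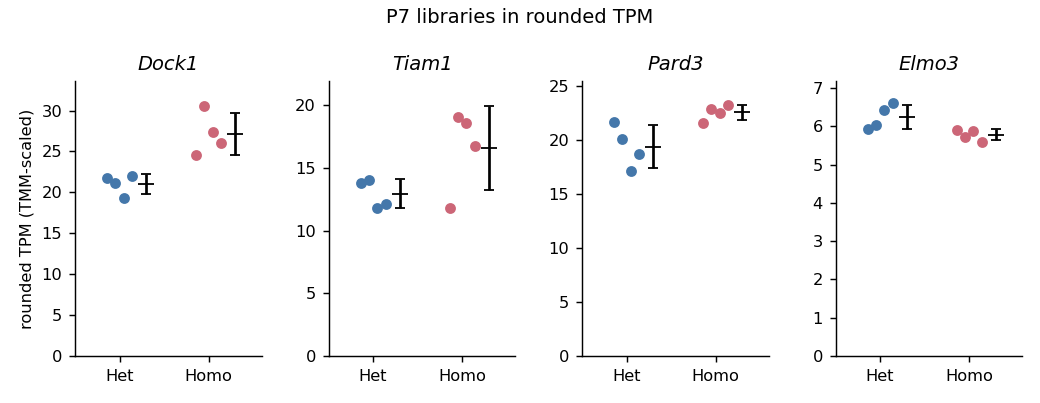
Level in TPM scaled by TMM (y axis, from 0) of Dock1, Tiam1, Pard3 and Elmo3 in each of the 4 Het and 4 Homo P7 libraries in rounded TPM, as points, with the mean and SD of each group in black. All Homo libraries lie above all Het libraries for Dock1 (24.6 to 30.6 against 19.3 to 21.99 TPM), and 1 Homo library of Tiam1 lies at 11.8 TPM.

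The call on Dock1 rested on the settings. It passed in 2 of the 8 fits that left out a library, those without Het replicate 1 and Homo replicate 1, where 1326 and 2716 genes passed in all. In the others, those without Het replicate 2, 3 or 4 and Homo replicate 2, 3 or 4, its adjusted p was up to 0.123 (limma). In those fits 0 genes passed, so that the loss of the call was not particular to Dock1. In this set the log2 fold changes of all genes rose with the length of the longest coding transcript (Spearman's correlation 0.60 across 11343 genes, which are not independent replicates), and the median length was 6615 nucleotides for genes called higher and 1418 for those called lower. The same correlation was 0.06 in the P7 counts and -0.22 at P22. With this length trend removed, the value of Dock1 was 0.18 (adjusted p = 0.169, limma), and no gene of 11740 passed (2731 had an unadjusted p under 0.05).

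The Dock1 difference between the 2 sets of P7 libraries, 0.35 in rounded TPM and -0.05 in counts, was 0.41 ± 0.0952 (SE) on the log2 scale. It had an unadjusted p of 0.00345 and an adjusted p of 0.337 (from the standard errors of the edgeR and limma fits over 11736 genes, of which 0 passed and 1643 had an unadjusted p under 0.05). Tiam1 differed by 0.48 ± 0.179 (adjusted p = 0.337) and Pard3 by 0.26 ± 0.116 (adjusted p = 0.361, edgeR and limma as above). Batch and unit cannot be told apart in this comparison. Within the P7 rounded TPM set, 1 hair cell marker and 2 supporting cell markers were higher, and 1 Schwann cell and myelin, 1 macrophage and 1 erythroid marker were lower. None of 11 neuron, 3 neutrophil and 8 bone markers passed (limma, with 4, 0 and 4 at an unadjusted p under 0.05).

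Levels can be compared between genes only per length. In the P7 Het libraries in rounded TPM, as deposited, Rac1 was at 317 ± 11.0 (SD, n = 4) TPM, far above Mdm2 (38.3 ± 4.86) and Elmo2 (34.5 ± 2.38), whose ranges overlapped. Elmo1 (21.3 ± 2.99), Dock1 (20.3 ± 1.71), Pard3 (18.8 ± 2.75) and Baiap2 (16.5 ± 1.29) followed, each overlapping the next in order. Tiam1 was at 12.5 ± 1.73 TPM, overlapping Adgrb1 at 9.25 ± 2.22 TPM, and Elmo3 was lowest at 6.

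For the count sets, TPM was computed with the mean length of the coding transcripts. At P22 in Het, Rac1 was at 156 ± 4.41 (SD, n = 3) TPM, Elmo1 at 139 ± 10.4, Adgrb1 at 120.3 ± 6.86 and Elmo2 at 78.8 ± 0.861 TPM, with no overlap between neighbours. Mdm2 was at 30.2, Pard3 at 30.01 and Dock1 at 28.2 TPM, each overlapping the next. Tiam1 (22.8), Baiap2 (15.5) and Elmo3 (7.84 TPM) followed with no overlap, so that Elmo3 was again lowest. With the length of all exons joined, Elmo2 (55.6 TPM) stood above Elmo1 (46.4 TPM), since the exons of Elmo1 span 12580 bases in all and its coding transcripts 2154 on average. Adgrb1 stood above both by this length, at 74.0 TPM. The order of Elmo1, Elmo2 and Adgrb1 at P22 therefore depended on the length used. By the joined length Elmo3 (10.2 to 14.1 TPM) also overlapped Pard3 (13.1 to 13.9 TPM), while Rac1 was highest by either length.

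The makeup of the ELMO family was compared as the share of each gene among the 3, per mean length of the coding transcripts. At P22 Elmo1 had 61.5% ± 2.06 (SD, n = 3) in Het and 59.9% ± 1.12 in Homo, Elmo2 35.0% ± 1.75 and 34.8% ± 1.13, and Elmo3 3.48% ± 0.58 and 5.27% ± 0.69. The Elmo3 share did not overlap between genotypes (3.00% to 4.13% in Het, 4.81% to 6.06% in Homo), with an exact permutation p of 0.1, the smallest that 3 against 3 libraries allow (2-sided). The other shares had exact p-values of 0.3 for Elmo1 and 0.9 for Elmo2. By the joined exon length, Elmo2 had the largest share at P22 (48.7% in Het, beside 40.6% for Elmo1), and the Elmo3 share was again higher in Homo, by 4.85 percentage points.

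In the P7 counts, by the mean length of the coding transcripts, Elmo2 was the larger, with Elmo2 at 52.9% ± 0.64 and Elmo1 at 38.5% ± 1.77 in Het, and none of the 3 shares differed beyond the spread (exact permutation p of 0.4 to 0.7, 2-sided). In rounded TPM Elmo2 had 55.9% ± 1.51 and Elmo1 34.3% ± 2.12 in Het (n = 4). The Elmo3 share there, 9.77% in Het and 8.24% in Homo, comes from a constant value of 6 TPM over a varying sum.

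**Figure D3:**
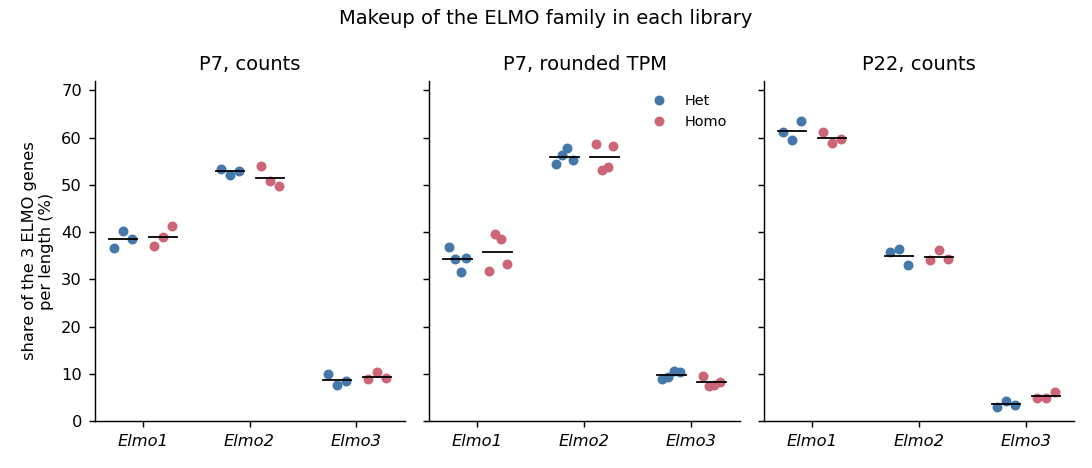
Share of Elmo1, Elmo2 and Elmo3 (x axis) in the sum of the 3, in percent (y axis), per mean length of the coding transcripts for counts and as deposited for TPM, for every Het and Homo library of the P7 counts, the P7 rounded TPM and the P22 counts. Points are libraries and lines are means. Elmo2 has the largest share at P7 (52.9% in Het in counts) and Elmo1 at P22 (61.5% in Het) by this length.

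The level of the members at P22 was set beside that at P7 in 1 fit over the 12 libraries in counts. The 2 ages come from separate tables and batches, so that age cannot be told apart from table, run and batch, and most genes differed: 72.8% of 16314 passed in Het (34.6% higher and 38.2% lower at P22) and 71.8% in Homo (35% higher and 36.8% lower). Of the members, 6 of 9 passed in Het (3 higher, 3 lower) and 4 of 9 in Homo (2 higher, 2 lower). Those 4 (Elmo1, Tiam1, Dock1 and Pard3) passed in both genotypes with the same direction, as did 64.6% of all genes. The groups did not overlap for 6 of 9 members in Het and 4 of 9 in Homo, against 78.3% and 74% of all genes. These were the same members that passed. At the study's threshold 4 of 9 members passed in Het and 3 of 9 in Homo, against 51.8% and 49.3% of all genes.

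Elmo1 and Tiam1 were higher at P22. On the scale of this fit, Elmo1 was at 58.0, 69.9 and 66.2 CPM in the P7 Het libraries and at 167, 164 and 186 CPM in the P22 Het libraries. In Homo it was at 59.9, 63.7 and 69.6 CPM and at 154, 145 and 154 CPM, so that no P22 library came near a P7 library. The rise was 1.41 ± 0.0844 (SE) on the log2 scale in Het (2.66-fold, adjusted p = 1.96e-08, edgeR) and 1.23 ± 0.0842 in Homo (2.35-fold, adjusted p = 6.87e-08, edgeR).

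Tiam1 was at 31.3, 41.7 and 36.6 CPM in P7 Het and 54.6, 52.5 and 60.4 CPM in P22 Het, and at 34.3, 29.6 and 32.2 CPM in P7 Homo and 40.8, 53.0 and 44.9 CPM in P22 Homo. The groups did not overlap in either genotype. The log2 fold changes were 0.61 ± 0.117 in Het and 0.53 ± 0.118 in Homo (adjusted p = 0.000448 and 0.00139, edgeR).

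Dock1 and Pard3 were lower at P22. Dock1, the exchange factor that pairs with ELMO1, was at 79.9, 84.8 and 83.8 CPM in P7 Het and at 55.7, 55.1 and 49.1 CPM in P22 Het. In Homo it was at 78.3, 76.5 and 80.5 CPM and at 48.7, 57.5 and 52.7 CPM. The log2 fold changes were -0.64 ± 0.0723 in Het and -0.57 ± 0.0723 in Homo (adjusted p = 4.75e-06 and 1.51e-05, edgeR). The transcripts of Elmo1 and Dock1 thus differed in opposite directions between the count sets, and whether they come from the same cells was not tested. Pard3 went from 77.7 ± 4.78 (SD, n = 3) to 57.6 ± 1.503 CPM in Het and from 74.2 ± 8.94 to 53.8 ± 2.72 CPM in Homo, with log2 fold changes of -0.43 and -0.46 (adjusted p = 0.000580 and 0.000342, edgeR).

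Elmo3 and Elmo2 passed in Het. Elmo3 was at 19.99, 16.9 and 18.7 CPM in P7 Het and 10.5, 14.7 and 12.5 CPM in P22 Het (-0.56, adjusted p = 0.00252, edgeR). In Homo it was at 18.3, 21.7 and 19.7 CPM and 15.6, 15.7 and 20.2 CPM, which overlap (-0.21, adjusted p = 0.171, edgeR). Without P22 Homo replicate 3, this value was -0.34 (adjusted p = 0.0443, edgeR). The small rise of Elmo2 in Het (0.15, adjusted p = 0.0261, edgeR) did not pass without P7 Het replicate 5 (0.11, adjusted p = 0.117), P22 Het replicate 1 (0.15, adjusted p = 0.0543) or P22 Het replicate 2 (0.13, adjusted p = 0.0801, edgeR). Elmo2 stood at 0.05 in Homo (adjusted p = 0.403, edgeR).

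Rac1, Mdm2 and Baiap2 did not pass in either genotype. Rac1 was at 305 ± 12.6 (SD, n = 3) CPM at P7 and 292 ± 10.3 CPM at P22 in Het, with a 95% interval of -0.21 to 0.08 for the log2 fold change. Mdm2 (-0.16 in Het, adjusted p = 0.0882, edgeR) passed without P7 Het replicate 6 (-0.24, adjusted p = 0.0153) or without P22 Het replicate 3 (-0.22, adjusted p = 0.0413, edgeR). Baiap2 stood at 0.05 in Het and -0.07 in Homo.

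**Figure D4:**
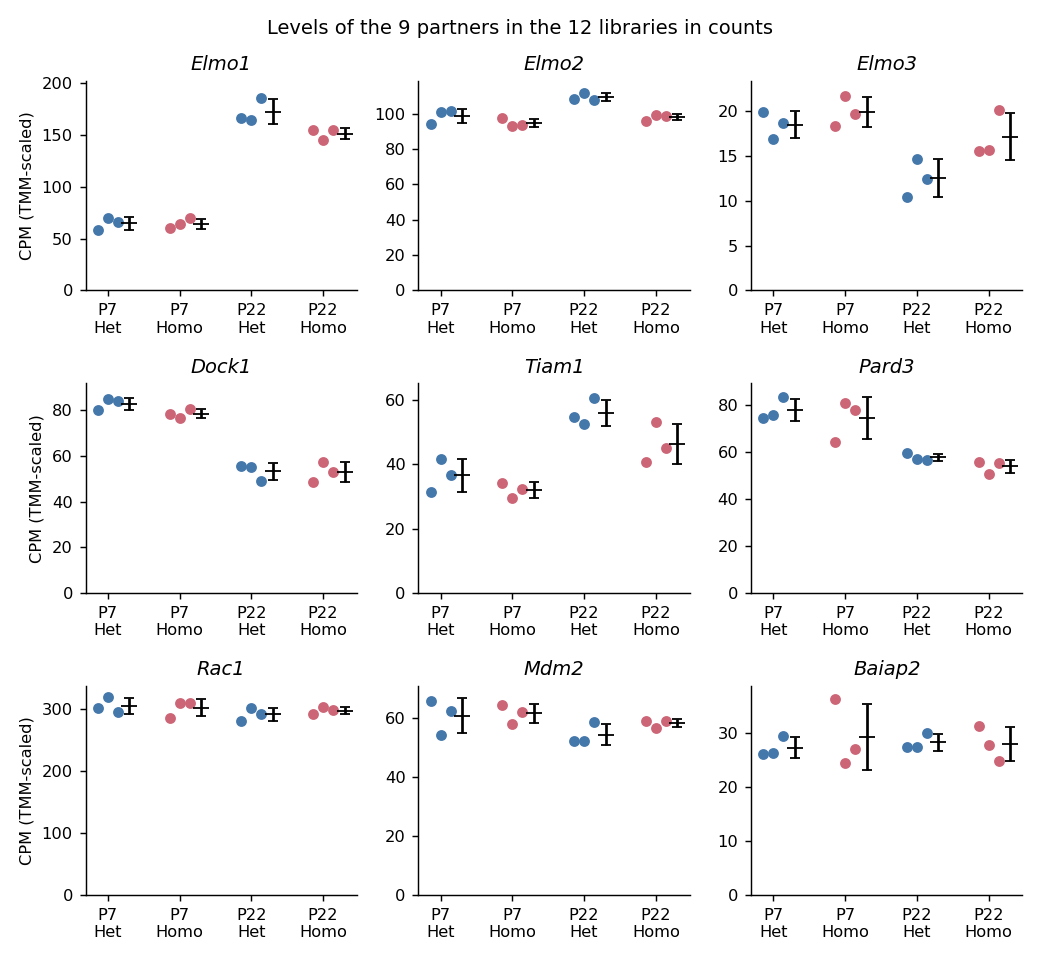
Level in CPM scaled by TMM over the 12 libraries in counts (y axis, from 0 in each panel) for the 9 partners in the P7 and P22 libraries of each genotype (x axis). Points are libraries, and black bars show mean and SD (n = 3). Elmo1 rises from 58.0 to 69.9 CPM in the P7 Het libraries to 164 to 186 CPM in the P22 Het libraries, Dock1 is lower at P22, and Rac1 stays between 281 and 320 CPM.

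The difference in the genotype effect between the ages was tested in the same fit. None of the members passed (0 of 9, against 0.0306% or 5 of 16314 genes, edgeR), and 0 of 9 had an unadjusted p under 0.05, where 10.2% of all genes did. DESeq2 also called none of the 9. The values nearest to a difference were Elmo3 (0.35 ± 0.192, adjusted p = 0.557) and Elmo1 (-0.18 ± 0.117, adjusted p = 0.625, edgeR). The 95% interval for Dock1 was -0.15 to 0.29 and that for Tiam1 -0.44 to 0.28.

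Cell type markers also differed between the count sets. Of 12 neuron markers, 11 were higher and 1 was lower at P22 in each genotype, and their summed level went from 1465 to 3015 CPM at P7 to 15251 to 17248 CPM at P22 in Het. Of 8 bone markers, 7 were lower in Het and 8 in Homo, with sums of 1433 to 1959 CPM at P7 and 199 to 494 CPM at P22 in Het. In Het 7 of 9 macrophage markers were lower, and 5 of 9 Schwann cell and myelin markers and 4 of 6 erythroid markers were higher. Of 10 supporting cell markers, 7 were lower and 3 were higher, and their sum went from 2681 to 3413 CPM at P7 to 2255 to 2624 CPM at P22. Of 11 hair cell markers, 8 were lower and 1 was higher. Their summed level was nevertheless higher at P22, at 811 to 1028 CPM at P7 and 1162 to 1222 CPM at P22. Much of this sum is 1 gene, Pvalb, which had a mean of 154 CPM in P7 Het and 676 CPM in P22 Het. These means are on the scales of the fits within each age. The rise of the sum therefore does not stand for the list. None of 8 neutrophil markers passed in Het or in Homo (edgeR, with 1 and 0 at an unadjusted p under 0.05). Their part in the changes of the members was not tested.

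The other genes of the pathway were read from 9 lists with 90 genes that are no member. At P22, 8 were higher and 7 were lower in Homo, 15 of 90 in all, where 12.3% of all genes passed. Among these lists, 1 of 10 DOCK factors, 1 of 12 other Rac exchange factors, 2 of 13 inactivators of Rac and its relatives, 2 of 22 WAVE and PAK effectors, 1 of 6 polarity genes, 2 of 6 IRSp53 family genes, 1 of 4 genes of MDM2 and PSD-95 turnover and 3 of 8 BAI-associated PDZ and other proteins passed. The median log2 fold changes of the lists given here ran from -0.10 (inactivators) to 0.29 (IRSp53 family), beside 0.01 for all genes.

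The genes of these lists with the smallest p at P22 were of both directions. Lower in Homo were Limk1, the kinase that inactivates cofilin downstream of PAK (-0.36, from 353 ± 22.9 CPM in Het to 275 ± 20.2 CPM in Homo, adjusted p = 0.0103, edgeR), and Arhgap35, a GTPase-activating protein (-0.33). Sos1, an exchange factor for Ras and Rac (-0.34), Dlg2, the postsynaptic scaffold PSD-93 (-0.33), and Chn1, a Rac GAP (-0.25), were also lower. Higher were Mdm4, the relative of MDM2 (0.32), Eps8l2 (0.32), the scaffold Dlg1 (0.29) and the GTPase Rhoc (0.37). Baiap2l2, a relative of Baiap2 found in hair cell stereocilia, went from 1.91 ± 0.35 CPM to 3.52 ± 0.57 CPM (0.88, adjusted p = 0.0261, edgeR). For these 10 genes the groups did not overlap, but they were picked by their p. Among all 90 genes the groups did not overlap for 35, against 33.7% of all genes tested.

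The count of 15 fell to 0, 5, 10, 4 and 6 without Het replicate 1, Het replicate 3 and Homo replicates 1, 2 and 3, and was 18 without Het replicate 2. With scaling to the neuron markers, which moved the median of all genes to 0.27, 33 of the 90 were higher and 0 lower, and 5250 of all 15443 genes passed. Chn1 was then at 0.0010, and Limk1 (-0.11), Arhgap35 (-0.07), Sos1 (-0.08) and Dlg2 (-0.08) did not pass, whereas Mdm4 (0.58), Eps8l2 (0.57), Dlg1 (0.55), Rhoc (0.61) and Baiap2l2 (1.13) did.

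At P7, 0 of the 90 passed in the counts (edgeR, with 5 at an unadjusted p under 0.05, and 0 with DESeq2). In rounded TPM, 81 were tested and 6 passed, all higher in Homo, where 8.16% of all genes passed and 4.78% were higher. They were the GAPs Srgap1 (0.52, adjusted p = 0.0436, limma), Srgap3 (0.46) and Srgap2 (0.28), the exchange factors Trio (0.31) and Dock5 (0.39), and Cyfip2 of the WAVE complex (0.27). The count was 0 in the 6 fits without Het replicate 2, 3 or 4 or Homo replicate 2, 3 or 4, was 8 without Het replicate 1 and 25 without Homo replicate 1, and was also 0 with the length trend removed. Wherever the count was 0, no gene of the whole set passed, and 1326 and 2716 genes passed without Het replicate 1 and Homo replicate 1. The median over the 81 genes was 0.10 and that over all genes 0.01.

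Between P7 and P22, 74 of the 90 passed in Het (31 higher, 43 lower) and 70 in Homo (31 higher, 39 lower), where 72.8% and 71.8% of all genes did. In Het the 10 largest differences were those of Limk1 (2.92, from 51.7 ± 10.2 to 391 ± 24.6 CPM), the Rac GAP Abr (2.49), Dlg2 (2.46), the neuronal DOCK factor Dock3 (2.35), Chn1 (2.23) and the kinase Pak1 (1.62), which were higher at P22. Lower were Tiam2, the paralog of Tiam1 (-2.01, from 36.2 ± 4.27 to 9.005 ± 0.149 CPM), Baiap2l2 (-1.998), the actin regulator Eps8 (-1.89) and Pard3b, the paralog of Pard3 (-1.65). In Homo, Dock4 (-1.72) and Rac3 (-1.68) took the place of Baiap2l2 and Pak1 among the 10.

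By list, the medians of the age difference in Het ran from -1.02 for the IRSp53 family (2 higher and 4 lower of 6) and -0.79 for the other Rac exchange factors (3 higher and 8 lower of 12) to 0.58 for the inactivators (7 higher and 2 lower of 13). The polarity genes stood at -0.53 (2 higher, 4 lower of 6) and the genes of MDM2 and PSD-95 turnover at -0.42 (1 higher, 2 lower of 4). The DOCK factors were at -0.12 (2 higher, 5 lower of 10), the WAVE and PAK effectors at -0.01 (10 higher, 9 lower of 22) and the BAI-associated proteins at -0.02 (3 higher, 2 lower of 8). Over all genes the median was -0.06.

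**Figure D5:**
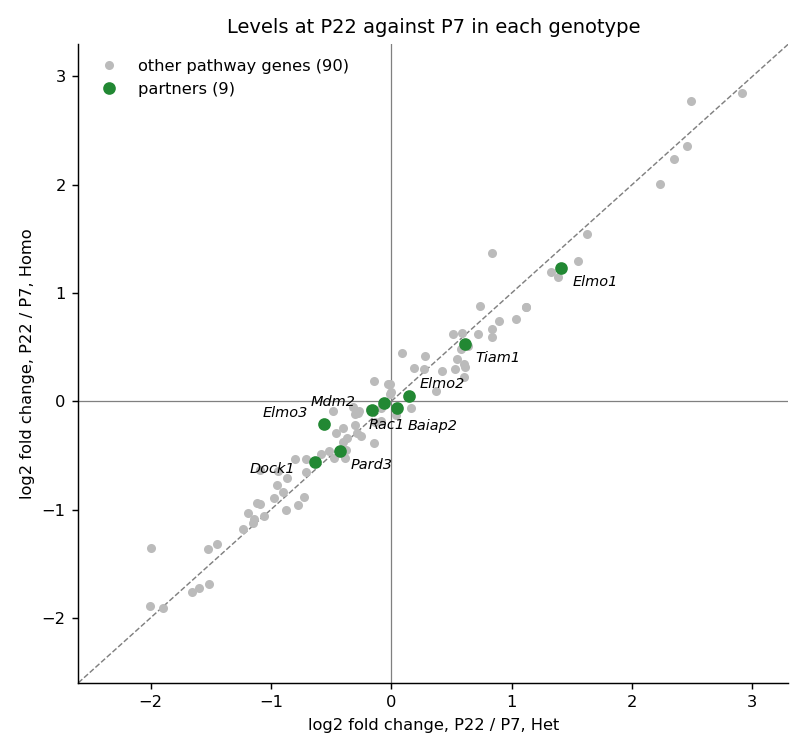
Log2 fold change of P22 over P7 in Het (x axis) and in Homo (y axis) for the 9 partners (green) and 90 other genes of the pathway lists (grey), from 1 fit over the 12 libraries in counts. The dashed line marks equal values. Elmo1 lies at 1.41 and 1.23 and Dock1 at -0.64 and -0.57, and the other genes reach from -2.01 to 2.92 in Het.

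The genes most like Elmo1, Dock1 and Tiam1 were sought over the 12 libraries in counts, after each gene was centred on its mean in its own table. The centred values still hold the genotype, and the libraries share their dissection and depth, so that the correlations only describe these 12 libraries. For Elmo1 the 3 highest Pearson's r of 16314 genes were those of Unc5a (0.97), Armcx3 (0.96) and Fastkd1 (0.95), with Spearman's correlations of 0.90, 0.96 and 0.97. Without the 2 libraries farthest from the median they were 0.95, 0.94 and 0.92. For Dock1 they were Trp53cor1 (Pearson's r = 0.92, Spearman's correlation 0.90), Sorcs2 (0.91 and 0.96) and Emp1 (0.88 and 0.85), and for Tiam1 Rasgef1b (0.97 and 0.95), Thsd7a (0.95 and 0.96) and Kcnh5 (0.95 and 0.98). Without the 2 farthest libraries these 6 had an r of 0.87 to 0.94. Among the members, Tiam1 had an r of 0.80 with Elmo2, of 0.80 with Adgrb1 and of -0.68 with Elmo3. Elmo1 had an r of 0.68 with Adgrb1 and of -0.51 with Elmo3. Elmo1 and Dock1, whose products form 1 complex, had an r of -0.10. How many of all genes reach such values was not counted, so that they do not set the members apart.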

How the data were processed

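Cochlear RNA of 20 libraries (14 at P7, 6 at P22) was prepared with poly A enrichment. The submitters' processing notes name STAR, Salmon and DESeq2 and the build mm10. The annotation release, versions and use of strand were not given in the sources used here. The authors deposited estimated counts (expected counts) per gene for P22 and for P7 replicates 5 to 7, without normalization. For P7 replicates 1 to 4 the authors deposited a score made of whole numbers, which was read as rounded TPM because the libraries had sums of 999644 to 999777, so that their read depth is unknown.

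Estimated counts were rounded to whole numbers and tested by quasi-likelihood in edgeR 4.0.16 (R 4.3.3, filterByExpr, TMM), with DESeq2 1.42.0 as an alternative. Rounded TPM were scaled by TMM and tested with limma 3.58.1 (with trend) on log2(TPM + 1) where the mean reached 5 TPM. P values were adjusted by the Benjamini-Hochberg method over all genes tested, and passing means an adjusted p under 0.05. Shares were compared by exact permutation tests. Intervals are 95%, for each gene alone. The edgeR fits of genotype, of age in Het and of the interaction, and the limma fit, were tested on simulated data. The changes planted there were larger than any genotype difference of the members. The other steps were not tested in this way. The members, gene lists and tests were chosen with earlier results of these data known. Named besides the members are Adgrb1, up to 10 pathway genes that passed in each comparison (by p for genotype, by size for age) and the 3 genes most like Elmo1, Dock1 and Tiam1. Lists are described by counts and medians only. GENCODE M21 (GRCm38) matched 23350 of 24411 symbols (95.7%), and 2 symbols occur more than once. Alternatives were another test, scaling, filter, pseudocount and transcript length, the replicate number, each library left out and, added after seeing the data, a length trend. No column was left unused, and isoforms were not analysed here. The result of 1 of the pathway lists is not reported here.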

Additional observations from a re-analysis of the deposited data

How the results depend on the processing

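The count of members passing at P22 (0) was 3 with DESeq2 (Elmo1, adjusted p = 0.0494, Elmo3, adjusted p = 0.0184, and Tiam1, adjusted p = 0.0443), 1 without the filter on low counts (Elmo3, adjusted p = 0.0477, edgeR), 3 with scaling to neuron markers, and 0 to 1 when a library was left out (without Het replicate 2, Elmo3; without Homo replicate 2, Tiam1). In the P7 libraries in rounded TPM the count of 1 was 0 with a minimum mean of 1 TPM, with no minimum, with the replicate number as a block (Dock1, adjusted p = 0.117, limma) and with the length trend removed, and 0 to 2 when a library was left out. Over all genes, the count at P22 was 630 to 2108 when a library was left out (2489 with DESeq2, 5250 with neuron scaling), and in rounded TPM it was 0 to 2716, and 1539 as deposited, where the median of all genes was 0.12. The interaction had 173 calls with DESeq2 and 0 to 112 without a library. The member counts of the P7 counts and the interaction stayed at 0, and those of age at 5 to 7 in Het and 4 to 5 in Homo.

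Scaling to neuron markers moved the median of all genes to 0.27 at P22 and in the P7 counts, and this common shift alone changed the sign of Elmo1 (0.074), Elmo2 (0.10), Dock1 (0.26), Pard3 (0.16), Baiap2 (0.24) and Chn1 (0.0010) at P22, and Elmo2 (0.25), Dock1 (0.23), Tiam1 (0.17) and Pard3 (0.21) in the P7 counts, which is no result about these genes. Removing the length trend, added after seeing the data, reversed Dock1 at P22 (0.051), Rac1 in the P7 counts (-0.0041) and Rac1 (-0.056) and Adgrb1 (-0.14) in rounded TPM. The cause of the changes with the length trend was not tested.

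Leaving out a library in turn changed the sign of small values only: at P22 Dock1 ran from -0.058 to 0.060 and Baiap2 from -0.090 to 0.065. In the P7 counts Elmo1 ran from -0.044 to 0.072, Mdm2 from -0.037 to 0.12, Pard3 from -0.10 to 0.033, Rac1 from -0.018 to 0.037 and Baiap2 from -0.078 to 0.25. In rounded TPM Rac1 ran from -0.018 to 0.050 and Adgrb1 from -0.070 to 0.11, and for age in Homo Baiap2 ran from -0.18 to 0.12. In the interaction Tiam1 ran from -0.19 to 0.019, Pard3 from -0.13 to 0.032, Baiap2 from -0.22 to 0.067 and Adgrb1 from -0.24 to 0.20. The Homo minus Het share (percentage points) ran from -1.21 to 0.44 for Elmo2 at P22, from -0.53 to 1.51 for Elmo1 in the P7 counts and from -0.84 to 1.04 for Elmo2 in rounded TPM.

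The replicate numbers did not pair the libraries: same-numbered libraries had correlations of their deviations from -0.347 to 0.082. With the number as a block, the calls over all genes were 1505 at P22 (1904 without) and 0 in rounded TPM (958 without), and no member's call changed but that of Dock1.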
